A study of Mus musculus with 61 samples.

Results

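The metabotropic glutamate receptors are membrane proteins through which glutamate acts on neurons and glia by way of G proteins. Group I, to which Grm5 belongs, couples to Gq and phospholipase C, whereas group II (Grm2 and Grm3) and group III (Grm4, Grm6, Grm7 and Grm8) couple to Gi/o and lower the activity of adenylyl cyclase. Group III receptors are known chiefly from presynaptic terminals, where they reduce transmitter release. In all, 6 genes of the family were chosen by name (Grm2, Grm3, Grm4, Grm5, Grm7 and Grm8), and the probe with the highest mean intensity was followed for each. Probes were matched for 4 of the 6, namely Grm3 of group II and Grm4, Grm7 and Grm8 of group III, out of 16358 genes with a named probe on the array. No probe was matched to Grm2 or Grm5 through its RefSeq accession, and they were not analysed here.

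Whole brains of 8-week-old male C57BL/6J mice were cut into fractions 1 mm wide (200 sections of 5 µm), and the RNA of each fraction was hybridised to 1 single-colour Agilent array. The 61 fractions came from 6 mice, 2 per plane: C and Co in the coronal plane (13 and 16 fractions), H and Ho in the horizontal plane (6 and 7) and S and So in the sagittal plane (9 and 10), with the second mouse of each plane cut slightly obliquely. Each series is 1 mouse, so a fraction had no replicate of its own, and the study paired 56 fractions into 28 pairs (c1 to c13, h1 to h6 and s1 to s9) by the correlation of these same arrays. The pairs served here as replicates, and since they were chosen for their likeness, p-values from their spread may be too small. Coronal pairs run from posterior to anterior, horizontal pairs from dorsal to ventral and sagittal pairs from left to right. Cerebellar granule cell markers peaked in C3 and Co3 and olfactory bulb markers in C13 and Co15, which sets the coronal order.

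Levels are given as scaled log2 intensity, the log2 signal minus the 75th percentile of the same array, so that 0 is the level of that percentile. The 75th percentile lay between 740 and 1971 intensity units over the arrays, and from 57.9% to 73.1% of the probes on each array were well above background. All 4 receptor probes were well above background on all 61 arrays, and each was a single spot. A fraction holds many cell types, so fewer cells of a type and less RNA per cell cannot be told apart.

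The means of Grm3 and Grm8 were both lower over c1 to c4 than over c5 to c13, with different courses further forward. For Grm3 the zones overlapped, since C13 (-0.94) and Co15 (-0.69) lay below all paired fractions of c1 to c4. The upstream sequences of these 2 receptors are shown for this reason. They are the 250 bases before the annotated start, on the minus strand of RefSeq GRCm38.p6, at chr5:9725353-9725602 for Grm3 and chr6:28135147-28135396 for the furthest upstream of the 3 annotated starts of Grm8. Capitals mark CG dinucleotides.
Grm3: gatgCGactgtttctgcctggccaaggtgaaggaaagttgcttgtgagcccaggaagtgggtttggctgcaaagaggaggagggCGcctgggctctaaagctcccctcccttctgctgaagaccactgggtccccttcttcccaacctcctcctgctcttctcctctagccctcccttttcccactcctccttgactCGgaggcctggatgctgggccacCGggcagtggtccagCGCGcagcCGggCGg
Grm8: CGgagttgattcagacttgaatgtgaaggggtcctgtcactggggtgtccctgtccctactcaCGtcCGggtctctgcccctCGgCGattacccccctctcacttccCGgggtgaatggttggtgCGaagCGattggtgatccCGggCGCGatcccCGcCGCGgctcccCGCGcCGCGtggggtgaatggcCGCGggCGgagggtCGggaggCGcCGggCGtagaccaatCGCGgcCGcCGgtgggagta
The Grm3 stretch held 8 CG dinucleotides and 62.4% G and C, and the Grm8 stretch held 29 and 68.4%, beside medians of 6 and 52.4% over 32851 promoters. Both held GGGCGG on either strand, as did 32.7% of the promoters. Neither held TATAAA or TGACGTCA, which 12.4% and 1.55% held. The other 2 annotated starts of Grm8 had 8 and 2 CG dinucleotides. The 2 annotated starts of Grm7 had 8 and 9, with 62% and 65.2% G and C, and the start of Grm2 had 16 and 71.2%. All of these Grm7 and Grm2 stretches held GGGCGG, so neither it nor a high share of G and C was particular to Grm3 and Grm8. A relation of these features to the levels was not tested. The arrays do not tell which start was in use.

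Of the 4 receptors, 3 varied over the 28 pairs beyond the spread within pairs, and Grm4 had the widest range. The limma moderated F test gave adjusted p = 8.54e-09 for Grm3, 1.12e-08 for Grm4 and 1.18e-08 for Grm8, and 0.649 for Grm7. Of the 36573 probes tested, 61.3% passed, so 3 of 4 is close to the background. Without mouse Co the adjusted p for Grm7 was 0.00289. With the mouse as a block the call for Grm7 changed, with adjusted p = 1.13e-07, when 81.0% of probes passed. Restricted to differences between pairs of 1 plane, a form chosen after the blocked values had been seen, it was 8.88e-06, and 64.1% of probes passed. From the lowest to the highest of the 61 fractions the span was 3.97 on the log2 scale for Grm4, 2.23 for Grm3, 2.01 for Grm8 and 1.39 for Grm7, beside a median span of 2.13 over the probes tested.

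**Figure D1:**
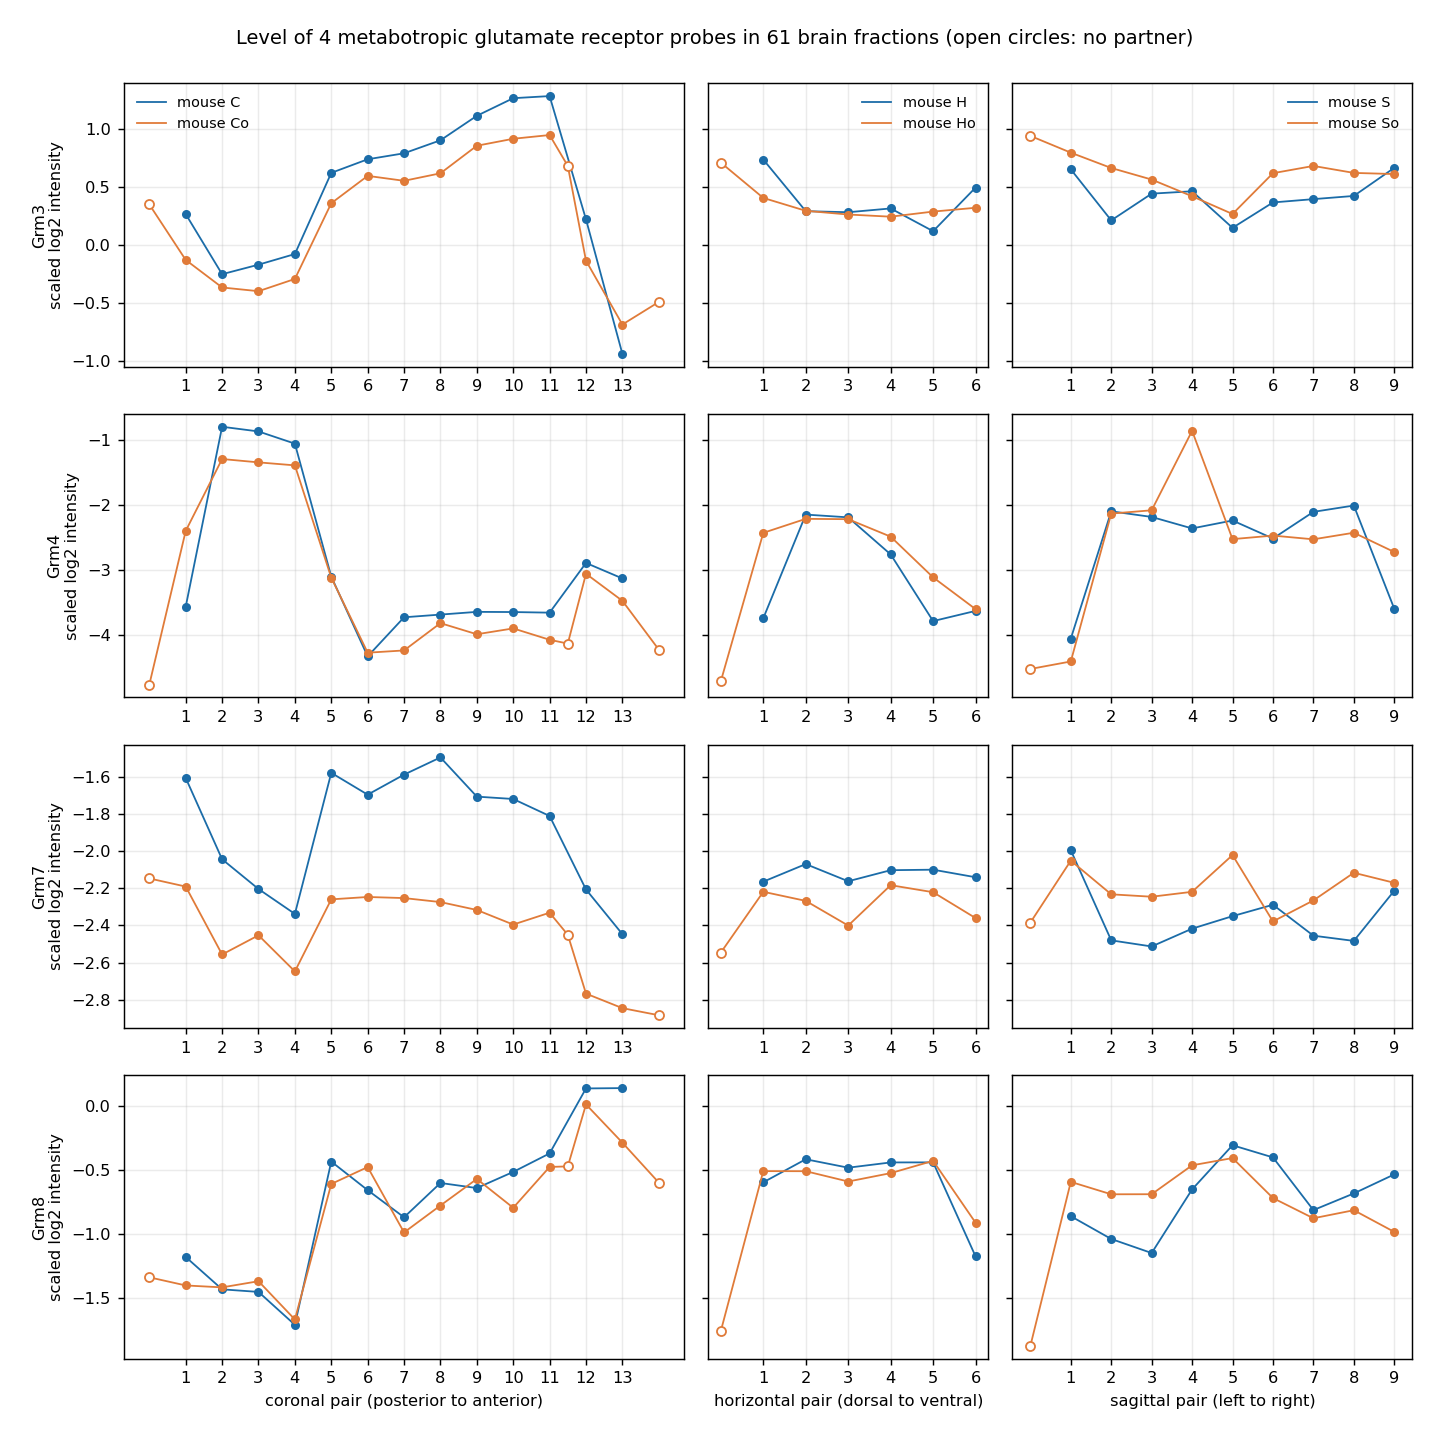
Scaled log2 intensity (vertical axes) of Grm3, Grm4, Grm7 and Grm8 in the 61 fractions, by pair number in the coronal, horizontal and sagittal planes. Each line is 1 mouse and open circles are the 5 fractions with no partner; Grm4 reaches -0.80 in C2, and Grm7 lies higher in C than in Co throughout the paired fractions.

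Grm4, a group III receptor known from the parallel fibre terminals of cerebellar granule cells, was highest near the back of the brain. Its level was -0.80 in C2, -0.87 in C3 and -1.06 in C4, and -1.29, -1.34 and -1.39 in the partners Co3, Co4 and Co5. The first pair differed, with -3.57 in C1 and -2.40 in Co2. The hindmost fraction of the other mouse, Co1, which has no partner and entered no contrast, was at -4.76, the lowest of the 61 fractions. The paired fractions c5 to c13 lay between -4.33 and -2.89, so C1 was the only fraction of c1 to c4 inside their range. The mean of c1 to c4 exceeded that of c5 to c13 by 2.06 (SE 0.163), a 4.18-fold difference (limma, adjusted p = 3.13e-12). When slides entered as a fixed block, the difference was 1.92 and the adjusted p was 0.113. With normexp background correction (offset 50) followed by quantile normalization, called quantile normalization below, the difference was 1.37 (adjusted p = 3.99e-12). C1 to C4 shared a slide, as did Co2 to Co4, so slide and coronal position were largely confounded in the fit with slides. In front, the levels were -3.66 in C11 and -4.07 in Co12, and -2.89 in C12 and -3.06 in Co14, and c10 to c13 did not pass against c5 to c9 (0.31, SE 0.182, adjusted p = 0.224).

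Grm3, a group II receptor of both neurons and astrocytes, had the opposite course over most of the coronal series. It rose from -0.25 in C2 and -0.37 in Co3 to 1.29 in C11 and 0.95 in Co12, the highest fraction of each mouse. It then fell within 2 pairs to -0.94 in C13 and -0.69 in Co15, the lowest. The means of the pairs were 1.12 ± 0.238 (SD, n = 2) at c11, 0.045 ± 0.252 at c12 and -0.81 ± 0.179 at c13. The mean of c1 to c4 lay below that of c5 to c13 by 0.74 (log2 difference -0.74, SE 0.074, 1.67-fold, adjusted p = 6.53e-10). The mean of c10 to c13 also lay below that of c5 to c9 (-0.36, SE 0.082, adjusted p = 0.00142), although c10 and c11 were the highest pairs, and the contrast therefore averages a high and a low stretch. With each fraction paired by its number in place of its likeness, this difference was 0.054 and the adjusted p was 0.876.

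Grm8, a group III receptor, was low in the back and highest in the front. All 8 paired fractions of c1 to c4 lay between -1.71 and -1.18, and all 18 of c5 to c13 between -0.99 and 0.14. The share of all probes with zones that do not overlap was not computed. The contrast was -0.97 (SE 0.068, 1.95-fold, adjusted p = 2.21e-13), and 51.7% of all probes passed. The step fell between C4 at -1.71 and C5 at -0.44, and between Co5 at -1.67 and Co6 at -0.61. C4 and C5 lay on different slides, whereas Co5 and Co6 shared a slide. The highest levels were 0.14 in C13 and 0.13 in C12, and 0.01 in Co14. The mean of c10 to c13 exceeded that of c5 to c9 by 0.39 (SE 0.076, 1.31-fold, adjusted p = 0.000184). Without mouse C the difference was 0.298 and no longer passed (adjusted p = 0.0875), whereas the caudal contrast passed without any mouse.

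Grm7, a group III receptor found in many brain regions, was the flattest of the 4 along the coronal axis. Within C it ranged from -2.45 in C13 to -1.49 in C8, and within Co from -2.88 in Co16 to -2.15 in Co1. The contrast of c1 to c4 with c5 to c13 was -0.15 (SE 0.123, adjusted p = 0.325, and 0.00574 with the mouse as a block, when 63.1% of all probes passed). Without mouse Co it was -0.243 and passed (adjusted p = 0.0340). The contrast of c10 to c13 with c5 to c9 was -0.38 (SE 0.137, adjusted p = 0.0422, and 8.48e-07 with the block, when 40.8% of all probes passed). In each mouse the 4 front fractions lay below all 5 middle ones, a separation not counted over all probes. Without the block the contrast did not pass on leaving out any of 9 coronal arrays (C5 to C9, Co11, Co12, Co14 or Co15) or any mouse of the other planes (adjusted p from 0.0758 to 0.144). With median scaling it was -0.33 with adjusted p = 0.0816.

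Over the receptors, 3 of 4 passed in the caudal contrast, where 51.7% of all probes passed and the median of all probes was 0.13. When arrays were scaled to their medians instead, it was 0.013. In the front contrast 3 of 4 passed, beside 26.0% of all probes.

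**Figure D2:**
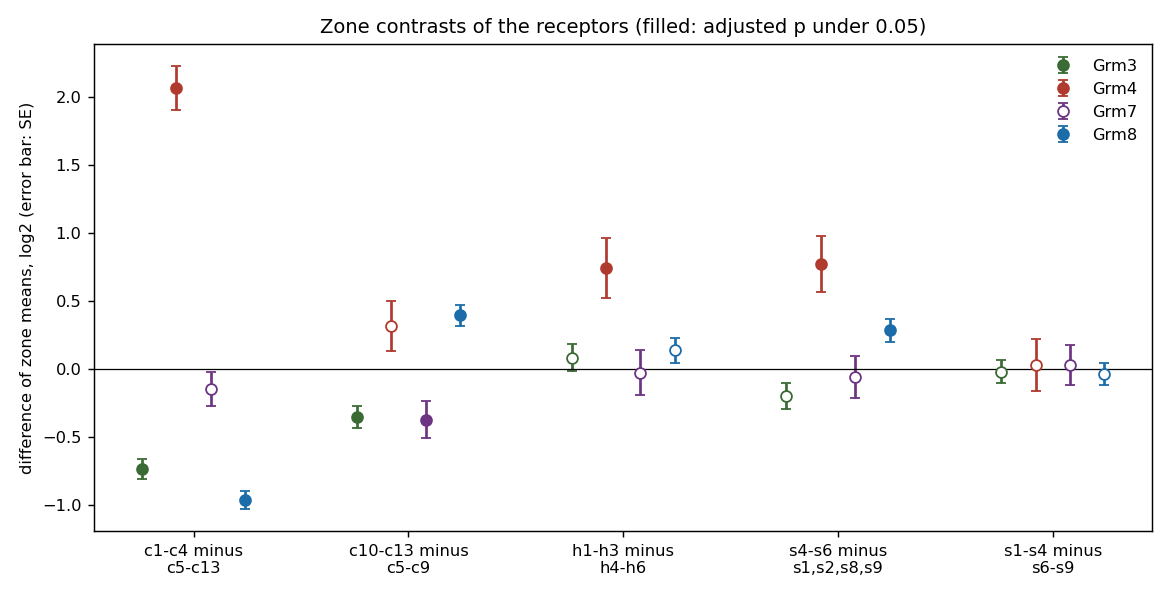
Differences of zone means on the log2 scale (points) with their SE (bars) from the limma fit over 28 pairs, for 4 receptors and 5 contrasts; filled points passed at an adjusted p under 0.05. Grm4 stands at 2.06 in the caudal contrast, where Grm3 and Grm8 lie at -0.74 and -0.97, and no receptor passed from left to right.

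In the horizontal plane Grm4 alone passed. Its levels in the 6 paired dorsal fractions (h1 to h3) ran from -3.74 to -2.15 and in the 6 ventral ones (h4 to h6) from -3.79 to -2.49, and they overlapped because H1 was at -3.74 while its partner Ho2 was at -2.43. The difference was 0.74 (SE 0.221, adjusted p = 0.0228), beside 12.6% of all probes. It no longer passed without H2, H3, H4, H5 or Ho2, without either mouse of the plane, or with the slide as a random block (0.77, adjusted p = 0.122), and it was 0.094 (adjusted p = 0.958) with fractions paired by number. Differences for the other receptors were 0.082 (SE 0.10) for Grm3, -0.029 (SE 0.167) for Grm7 and 0.14 (SE 0.092) for Grm8.

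In the sagittal plane the means of Grm4 and Grm8 were higher over the midline pairs (s4 to s6) than over the lateral ones (s1, s2, s8 and s9), beside 19.6% of all probes. Grm4 differed by 0.77 (SE 0.207, adjusted p = 0.00684). The zones overlapped, since the lateral pairs s2 and s8 (means -2.12 and -2.22) lay above the midline pairs s5 and s6 (-2.38 and -2.49), and the outermost pairs s1 and s9 were low (-4.23 and -3.16). The fraction So5 stood at -0.86 while So4 and So6 were at -2.08 and -2.53 and its partner S4 at -2.36. Without So5 the difference was 0.519 with adjusted p = 0.0700, without mouse So it was 0.568 (adjusted p = 0.200), and with quantile normalization it was 0.434 (adjusted p = 0.0286). The 3 granule cell markers did not share this step, with means of 0.529, 0.099 and 0.050 in So4, So5 and So6. Grm8 differed by 0.28 (SE 0.086, adjusted p = 0.0179), with its highest sagittal levels in S5 at -0.31 and So6 at -0.41, which are partners. It did not pass without S1, S2, S5, S6, So5, So10 or mouse S (0.227 to 0.266, adjusted p from 0.0526 to 0.171) or with scaling to the median (0.174, adjusted p = 0.164), under which the median of all probes moved from 0.0047 to -0.10. For Grm3 the difference was -0.20 (SE 0.094, adjusted p = 0.15, and 0.0159 with the mouse as a block, when 33.3% of all probes passed), and it was lowest in S5 and So6. The Grm3 difference was -0.31 and passed with scaling to the median (adjusted p = 0.0285) and with the authors' table (0.0281). It was -0.18 and passed with slides (adjusted p = 0.0312) or scan days (0.0115) as a fixed block. For Grm7 it was -0.061 (SE 0.156, adjusted p = 0.901).

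From left to right (s1 to s4 against s6 to s9) none of the 4 receptors passed, beside 0.153% of all probes. The differences ran from -0.039 (SE 0.080) for Grm8 to 0.027 (SE 0.145) for Grm7. Of 5 hypothalamus markers, all 5 higher in the midline pairs, 4 passed as lower in s1 to s4, with a median difference of -2.93 over the 5. Their mean peaked in S4 of pair s4 and in So7 of pair s6. The sides may therefore not mirror each other about the midline, and the contrast is not a strict comparison of hemispheres.

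The mice of a plane were compared in a model with the pair and the mouse. Grm7 and Grm3 differed between mice (adjusted p = 8.95e-11 and 0.000202), Grm4 and Grm8 did not pass (0.273 and 0.537), and 63.1% of all probes passed. Grm7 was lower in Co than in C by 0.55 on the log2 scale (log2 difference -0.55, SE 0.042, adjusted p = 1.21e-11), beside 53.4% of all probes, and higher in So than in S by 0.17 (SE 0.050, adjusted p = 0.0122), beside 29.9%. No receptor passed between Ho and H, beside 5.52%. Grm3 differed by -0.23 (SE 0.047) in Co and by 0.16 (SE 0.056) in So. The mouse and the angle of cutting cannot be told apart. The fractions of a coronal or sagittal pair were scanned on different days and slides in every pair but s1, and those of a horizontal pair lay on different slides, so that these too cannot be told apart from the mouse. Whether the zone contrasts themselves differed between the mice was tested on the differences within pairs. The left to right contrast of Grm8 differed by -0.56 (S minus So, SE 0.109, adjusted p = 0.0396), beside 0.260% of all probes, being negative in S and positive in So. The same difference was negative for the 4 olfactory bulb markers, from -2.32 for Tbx21 to -0.61 for Eomes, and none of them passed. Whether the position of the fractions plays a part was not tested. None of the receptors passed for the caudal, front, dorsal or midline contrast, beside 7.31%, 0.00820%, 0.230% and 0.00547% of all probes.

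In all, 3 probes were matched to Grm7, with mean intensities of 282, 99.9 and 29.7 units, the last well above background on 40 arrays. All were lower in Co than in C, by -0.55, -0.64 and -1.05. They correlated at r = 0.66, 0.55 and 0.50 over the 61 fractions after the mean of each mouse was subtracted, as a description over probes of the same arrays. All 3 gave negative differences in the caudal and front contrasts, but without the mouse as a block they differed in which contrast passed. The second probe gave -0.38 for the caudal contrast (limma, adjusted p = 0.0257) and -0.19 for the front contrast (adjusted p = 0.424). The third gave -0.030 and -0.29 and passed in neither. With the block the second passed in both (adjusted p = 3.38e-06 and 0.0250), as the first did, and the third in neither (0.852 and 0.117).

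**Figure D3:**
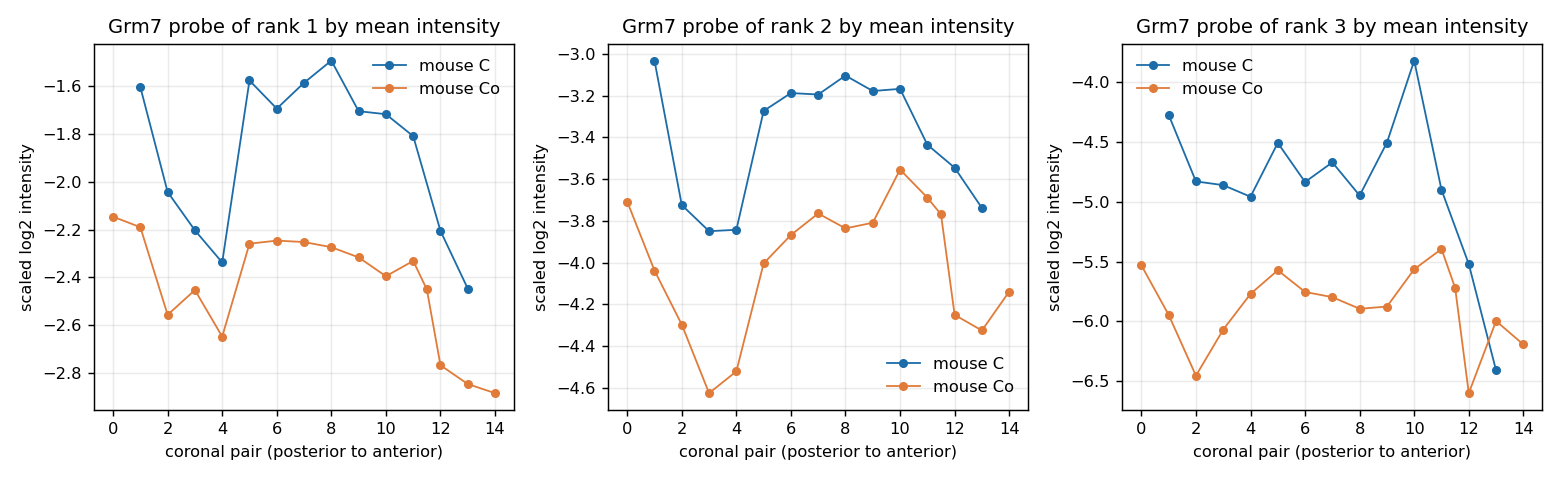
Scaled log2 intensity of the 3 Grm7 probes by coronal pair number in mouse C and mouse Co. The Co line lies lower for every probe, with mean differences of -0.55, -0.64 and -1.05 over the 13 pairs.

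Levels of the receptors were set beside marker genes of regions and cell types, chosen with earlier results of these data known. Over the 61 fractions, with the mean of each mouse subtracted, Grm4 correlated with the mean of the granule cell markers Gabra6, Cbln3 and Neurod1 at r = 0.87 and with that of 4 Purkinje cell markers at 0.88. All 3 granule cell markers passed in the caudal contrast, with differences from 3.81 for Neurod1 to 6.43 for Cbln3, larger than that of Grm4. At the caudal end their mean was -4.12 in Co1, -1.25 in C1 and 0.30 in Co2, where Grm4 was at -4.76, -3.57 and -2.40. Grm8 correlated with the mean of 4 olfactory bulb markers at 0.57, with values from 0.26 for Eomes to 0.76 for Cdhr1. Grm3 correlated with the mean of 5 cerebral cortex markers at 0.79 and with that of 6 astrocyte markers at -0.58. Of those 6, Slc1a2 was at 0.59 and the other 5 were between -0.70 and -0.18. All of these were read from the same libraries and carry no test, and their part in the receptor levels was not tested.

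**Figure D4:**
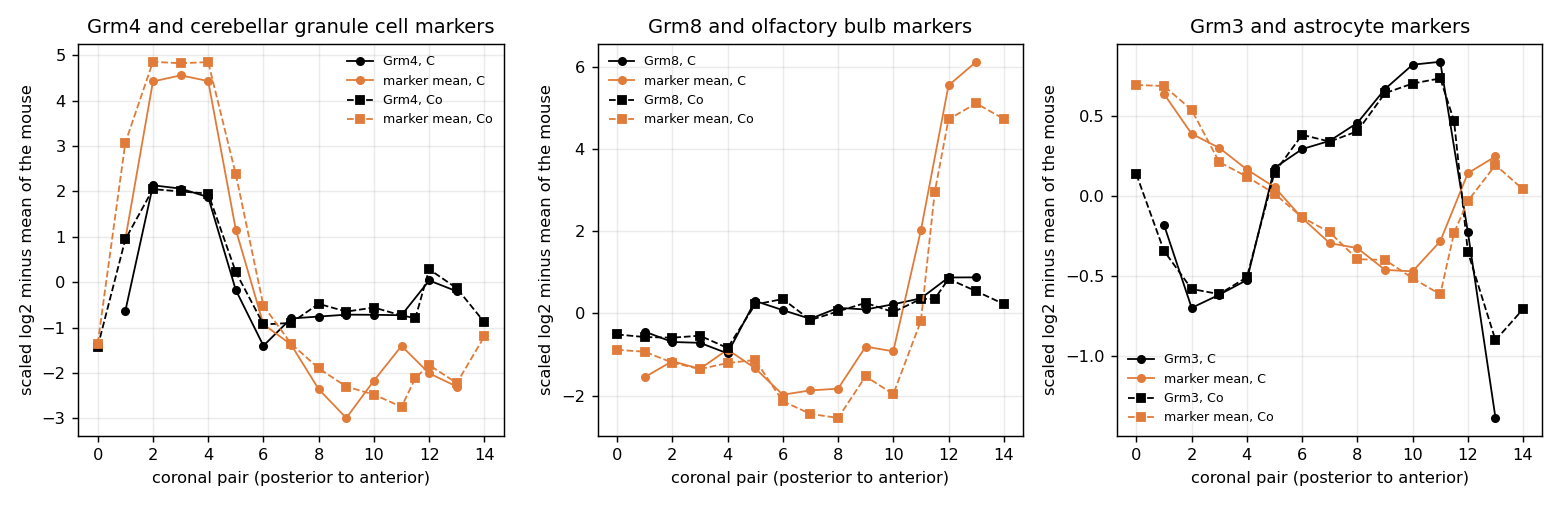
Scaled log2 intensity minus the mean of the mouse, by coronal pair number, for Grm4, Grm8 and Grm3 (black) and for the mean of granule cell, olfactory bulb and astrocyte markers (orange); solid lines are mouse C and dashed lines mouse Co. Grm4 and the granule cell markers are both high at pairs 2 to 4, and Grm3 and the astrocyte mean run in opposite directions.

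Among the receptors, the correlation over the 61 fractions with mouse means subtracted was 0.63 between Grm3 and Grm7, -0.58 between Grm3 and Grm4, and 0.06 between Grm8 and Grm3 or Grm7. The sign for Grm3 and Grm7 was not the same in every mouse, with r from -0.73 in Ho to 0.79 in C. Nor was it for Grm8, whose r ran from -0.90 in Ho to 0.26 in Co with Grm3 and from -0.28 in Co to 0.88 in Ho with Grm7. Grm6, a family member outside the rule, was not well above background on any array.

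The 5 genes most like each receptor were taken from 13015 genes by the same correlation. For Grm4 they were Chn2, Trim62, Rtel1, Epb41 and B3gnt5 (r = 0.93 to 0.95). For Grm3 they were Zfp239, Pde8b, Kcnq3, AI593442 and Arnt2 (0.93 to 0.95). For Grm8 they were Deptor, Hcn3, Kif2a, Pde4a and Ppm1e (0.82 to 0.86). For Grm7 they were Gm5662, Qpctl, Ccdc65, Tnfrsf21 and Htr1a (0.83 to 0.86), the weakest likeness together with Grm8. Without subtraction of the mouse means the first gene stayed first for Grm3, Grm4 and Grm8, and Gm5662 was at rank 10 for Grm7.

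The signalling genes downstream of the receptors varied in both directions. Of all probes 51.7% passed in the caudal contrast, and of these 60.1% were higher in c1 to c4, or 44.7% when arrays were scaled to their medians. Of 11 genes of the Gi/o pathway 8 passed, of which 2 were higher and 6 lower in c1 to c4, with a median difference of -0.20 on the log2 scale. Adcy5, an adenylyl cyclase abundant in the striatum, was lower by 1.19 on the log2 scale (-1.19, adjusted p = 9.92e-12), and Adcy1, a calcium-stimulated cyclase, was higher by 0.75 (adjusted p = 9.62e-09). Gnaz, a G protein of the Gi family, was lower (-0.67, adjusted p = 4.52e-11) and higher where Grm3 was higher (r = 0.88). Of 7 partners of group III and other receptors, all 7 were lower in the back, from -0.20 for Pick1 to -3.11 for Grasp. These included Elfn1 and Elfn2, postsynaptic proteins that bind group III receptors, at -1.13 and -1.05. Of 13 group I transduction genes 12 passed, of which 7 were higher and 5 lower, and of 7 scaffold genes 4 were measured, of which Homer3 was higher (2.89) and Homer1, Homer2 and Dlgap1 lower.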

How the data were processed

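RNA of 61 brain fractions of 6 mice was measured on single-colour Agilent arrays. The authors deposited spot intensity from Agilent Feature Extraction 9.1.3.1, background-subtracted and not normalized between arrays, and a second table of intensity normalized per chip in GeneSpring GX, used as an alternative. The genome build was not given in the sources used here. Fractions of the S series, which begin at 2 in the labels, were counted from 1.

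Deposited intensity of 41174 non-control probes was put on the log2 scale, averaged over spots, and the 75th percentile of the array was subtracted. The 36573 probes well above background on at least 1 array were tested with limma 3.58.1 in R 4.3.3 (lmFit, eBayes) over 28 pairs, with Benjamini-Hochberg adjustment over all of them and a threshold of 0.05. The number of mice, 2 per plane, limits the precision, since the fractions of a series are slices of 1 brain. The p-values rest on the spread within pairs of fractions and do not measure the spread over further animals. Fixed alternatives were other scalings, filters, probes, blocks and pairings and leaving out each array or mouse. Fits were tested on simulated data with independent errors and no mouse or slide effect, so this does not check the p-values of the real pairs. Genes named were the receptors, pathway and marker lists, and the 5 genes most like each receptor among probes well above background on at least 31 arrays. Members and lists were chosen with earlier results of these data known. The within-plane blocked F test and the likeness without subtraction of mouse means were added after values had been seen.

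The mice pair the fractions within a plane: within-pair differences of the same 2 mice correlated at a median of 0.278 over 129 combinations, with 115 over 0.1, against -0.026 between planes.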

Additional observations from a re-analysis of the deposited data

Results flagged for a closer look

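Each value below is scaled log2 intensity of 1 fraction that stood apart from the others of its series. Chance flags about 1 in 20 series, and 32 ends of series were examined. Grm8 was lowest at -1.878 in So1 (next -0.987), at -1.761 in Ho1 (next -0.9153) and at -1.178 in H6 (next -0.5996). So1 and Ho1 are outermost fractions with no partner and entered no contrast. Grm3 was highest at 0.7133 in Ho1 (next 0.4084).

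The left to right difference of Grm8 differed between the sagittal mice by -0.5566 (S minus So, SE 0.109, limma on within-pair differences, adjusted p = 0.0396), where 0.260% of all probes passed. It kept its direction in all alternatives, with adjusted p from 0.0501 to 0.0582 under all probes, median scaling and the authors' table. It no longer passed without pair c3, c5, c8, h5, s2, s3, s8 or s9 (adjusted p from 0.0506 to 0.102). The same difference was negative for the 4 olfactory bulb markers, and none of them passed.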

How the results depend on the processing

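Of 508 receptor values under alternatives other than leaving out, 441 kept their direction and side of the threshold, 23 no longer passed, 12 newly passed and 32 changed sign. Of these 32, 1 had passed, the front contrast of Grm3, which was 0.053912 when fractions were paired by number, and the others passed neither before nor after. Among them 15 were differences of contrasts between mice that are not given as values here. For Grm7 the dorsal contrast became 0.027 with median scaling, 0.028 with the authors' table, 0.042 with quantile normalization, 0.022 with the second probe and 0.057 with slides as a fixed term. The left to right contrast became 0.019 for Grm3 and 0.0019 for Grm8 with median scaling and 0.0185 and 0.0011 with the authors' table, and for Grm8 0.0077 with quantile normalization and 0.17 with slides as a fixed term. Pairing by number gave -0.14 for Grm4 in the front contrast, -0.11 for Grm8 in the dorsal one, and 0.087 for Grm3, -0.46 for Grm4 and -0.012 for Grm7 from left to right. Leaving out an array or a mouse gave -0.069 to 0.010 for Grm7 in the dorsal contrast, and from left to right -0.078 to 0.035 for Grm3, -0.16 to 0.21 for Grm4, -0.019 to 0.073 for Grm7 and -0.32 to 0.24 for Grm8. The number of the 4 receptors that passed changed by over 1.5 times in these cases. With the slide as a fixed block it was 0 for the front contrast and 0 for the dorsal one, and with slides as a random block it was 0 for the dorsal contrast. Pairing by number gave 0 for the front, 0 for the dorsal and 1 for the midline contrast. A threshold of 0.01 gave 0 for the dorsal and 1 for the midline contrast. The difference of contrasts between mice gave 0 under median scaling, the authors' table and all probes. The cause was not tested. With the replicate block (mouse) the counts were 4 for variation, 4 caudal, 3 front, 1 dorsal, 3 midline and 0 left to right. Leaving out an array, a pair or a mouse gave 3 to 4 for variation, 3 to 4 caudal, 2 to 3 front, 0 to 1 dorsal, 0 to 2 midline, 0 to 0 left to right, 2 to 2 between mice and 0 to 1 for the difference of contrasts. Each fraction was 1 array and each series 1 mouse, and the dimmest receptor probe, Grm4, reached down to 28.2 intensity units.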
